A study of Mus musculus with 12 samples.

Results

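SWI/SNF-type chromatin remodelling genes other than Atrx were followed in total RNA of the hippocampus of mice with a conditional deletion of Atrx and of controls. The set held 37 genes, taken by symbol from the 54532 genes of the deposited transcript tables, and covered ATPases of the SNF2 family together with subunits of the complexes they drive. Of these, 36 passed the filter on low values that left 15055 genes for testing, and Rad54l did not. Atrx conditional knockout (cKO) females and control females, and cKO males and control males, were sampled at 3 months of age, with 3 libraries in each of the 4 groups. The labels name the genotype only as control or Atrx-cKO, and the series title places the deletion in neurons. For the Cre driver, the exons it removes and the alleles of the controls, the sources used here give no answer. The labels do not say that each library is 1 animal, so p-values measure the spread between these libraries.

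Remodellers of this kind use the energy of ATP to slide, evict or exchange nucleosomes. They fall into the BAF and PBAF (SWI/SNF), ISWI, CHD and INO80 families, and a group of relatives works in DNA repair and at replication forks. Brain cells use family members of their own: during neuronal differentiation the BAF complex swaps ACTL6A for ACTL6B, and CHD5 and SMARCA1 are enriched in neurons. ATRX carries the same type of ATPase domain and works with DAXX to place the histone variant H3.3 in heterochromatin. The design asks, for these relatives, whether their RNA levels differ between Atrx-cKO and control hippocampus, and whether the answer is the same in females and males.

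Mapped sequence ran from 1.16 to 8.64 Gb per library. Genes for olfactory and vomeronasal receptors, which serve here as a background of the library, had a median of 0.305, 1.97 and 2.25 on the FPKM scale in cKO females, against 0.180, 0.0863 and 0.602 in control females. In males the background was 0.0205, 0.286 and 0.0178 in cKO, against 0.0276, 0.0128 and 0.00664 in controls. Levels are therefore given as bases per length of the union of a gene's exons, on the FPKM scale (fragments mapped, relative to transcript length and to the size of the library), after subtraction of this background and scaling between libraries. The sum of deposited FPKM over a gene's transcripts is named as such. The deleted gene Atrx (ENSMUSG00000031229, on the minus strand of the X chromosome at 105797615 to 105929403, GRCm38.p6) had 5.70, 6.21 and 6.73 in cKO females, against 11.2, 12.6 and 11.6 in control females. cKO males had 6.70, 6.41 and 8.68, against 10.01, 10.2 and 10.3 in control males. Its cKO libraries lay below the controls in either sex, with a log2 change of −0.87 in females (limma, SE 0.11, Benjamini-Hochberg adjusted p = 0.0200) and −0.47 in males (SE 0.11, adjusted p = 1). The female change was below 0 under every alternative run, but its call was lost with a replicate block (adjusted p = 0.127), with each sex fitted alone (0.202), without subtraction (0.0769), on deposited FPKM with median-of-ratios scaling (0.0887), with protein-coding transcripts (0.122) and without cKO females 2 and 3 (0.105). It was also lost without any 1 of cKO female 2, the 3 control females, cKO male 1 and the 3 control males (adjusted p = 0.0523 to 0.143). Tissue RNA also holds that of cells other than neurons, and fewer cells of a type and less RNA per cell cannot be told apart. The sex labels matched the sex-chromosome genes in 12 of 12 libraries. The 8 markers of hippocampal excitatory neurons were all present. Their sum was 450.2 to 476 in cKO females and 452 to 469 in control females, and 355 to 389.6 in cKO males and 363 to 398 in control males. Singly, 2 of 8 had a change above 0 in either sex, with a median of −0.15 in females and −0.12 in males, and none was called. Choroid plexus markers summed to 23.7 to 38.7 in cKO females and 9.20 to 5114 in control females, and 40.8 to 2302 in cKO males and 1237 to 3618 in control males. Microglia markers summed to 19.5 to 25.4 in cKO females and 26.0 to 31.5 in control females, with 0 of 5 above 0, and 35.1 to 40.99 in cKO males and 35.6 to 40.4 in control males. None of these was called, and their part in the values of the members was not tested.

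In control hippocampus the members spanned a wide range of levels. Chd3, an ATPase of the NuRD deacetylase complex, was highest with a mean of 72.4 over the 6 control libraries, followed by the BAF scaffold Smarcc2 (36.8), the NuRD ATPase Chd4 (27.0) and the ISWI ATPase Smarca1 (21.2). The ATPases Smarca4 (17.3), Smarca5 (16.8), Chd5 (15.5) and Smarca2 (12.5) came next. At the low end stood the BAF subunit Arid1a (1.37) and the recombination factor Rad54l (0.352). Neighbours in this order often overlapped between libraries, as Smarca4, Smarca5 and Chd5 did. The order also depends on the scale. As deposited, the median over all 12 libraries was 130 FPKM for Chd3, 63.0 for Smarca2 and 53.1 for Smarcc2. It was 48.7 FPKM for Chd4, 32.9 for Smarca1 and 20.7 for Smarca4, so Smarca2 then stood above Smarcc2 and Smarca4.

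**Figure D1:**
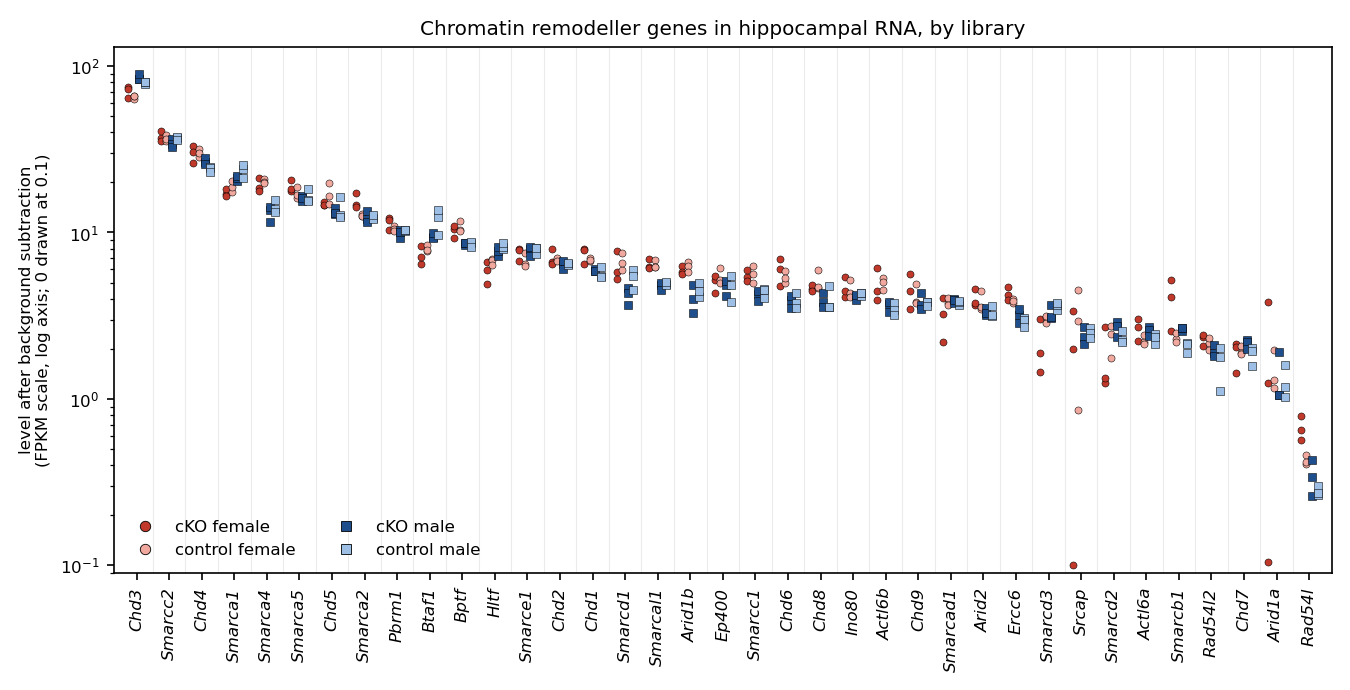
Level of each of the 37 genes (background subtracted, FPKM scale, log axis) in every library, ordered by the mean of the 6 control libraries; red circles are cKO and pale red circles control females, dark blue squares cKO and pale blue squares control males. Chd3 has the highest and Rad54l the lowest mean in all 4 groups, and 1 cKO female value of Srcap, which is 0, is drawn at 0.1.

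No member passed the test of cKO against control in either sex. In females 0 of 36 members were called at an adjusted p under 0.05 (limma with Benjamini-Hochberg adjustment over all genes tested), beside 0.0731% of all genes called, and 3 members stood at an unadjusted p under 0.05, a share of 8.33% beside 29.3% of all genes. In males 0 of 36 were called, beside 0.00664% of all genes, with 1 at an unadjusted p under 0.05, 2.78% beside 2.32%. For the effect averaged over both sexes 0 of 36 were called, beside 0.0332%, with 5 at an unadjusted p under 0.05, 13.9% beside 20.3%. The median log2 change over the members was −0.02 in females and −0.0046 in males, beside 0.02 and 0.03 over all genes tested. In females 16 members had a change above 0, 44.4% beside 52.1% of all genes, and in males 18 of 36 had one, beside 58.1% of all genes.

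The intervals give the size of change that the fit leaves room for. It uses 1 estimate of spread per gene for all 4 groups, so the median SE over the members was 0.12 in either sex. Where cKO females varied more, the female interval may be too narrow. An example is Smarcb1, with 2.57, 5.18 and 4.11 in cKO females and 2.57, 2.67 and 2.68 in cKO males. In females the 95% interval of the change excluded both a 1.5-fold rise and a fall of the same size for 30 of 36 members, in males for 30, and for the mean over the sexes for 32. An absolute log2 change under 0.2 was found for 28 members in females and 32 in males. The widest intervals belonged to Srcap (SE 0.66) and Arid1a (SE 0.56), whose levels lay near the background in some libraries. Other settings moved the female values. Without cKO female 1, which leaves the cKO females of highest background, limma called 5789 of 14939 genes (38.8%) and 6 members (16.7%). Smarcb1 (0.86, adjusted p = 0.000720) and Smarca2 (0.29, 0.0343) were then higher in cKO females, and Smarcd3 (−0.72, 0.00182), Smarcd2 (−0.64, 0.0130), Smarcad1 (−0.45, 0.0210) and Hltf (−0.29, 0.0372) were lower. On deposited FPKM scaled by median-of-ratios factors 2 of 37 members had a change above 0 in females, with a member median of −0.61 beside 0.31 over all genes, and 0 were called. On deposited FPKM with no scaling these medians were 0.09 and 0.88, and 3 of 37 members were called (8.11%), beside 24.1% of all genes. Chd5 was then lower (−0.54, adjusted p = 0.0493), and Rad54l2 (0.75, 0.0493) and Rad54l (1.07, 0.0495) were higher in cKO females.

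**Figure D2:**
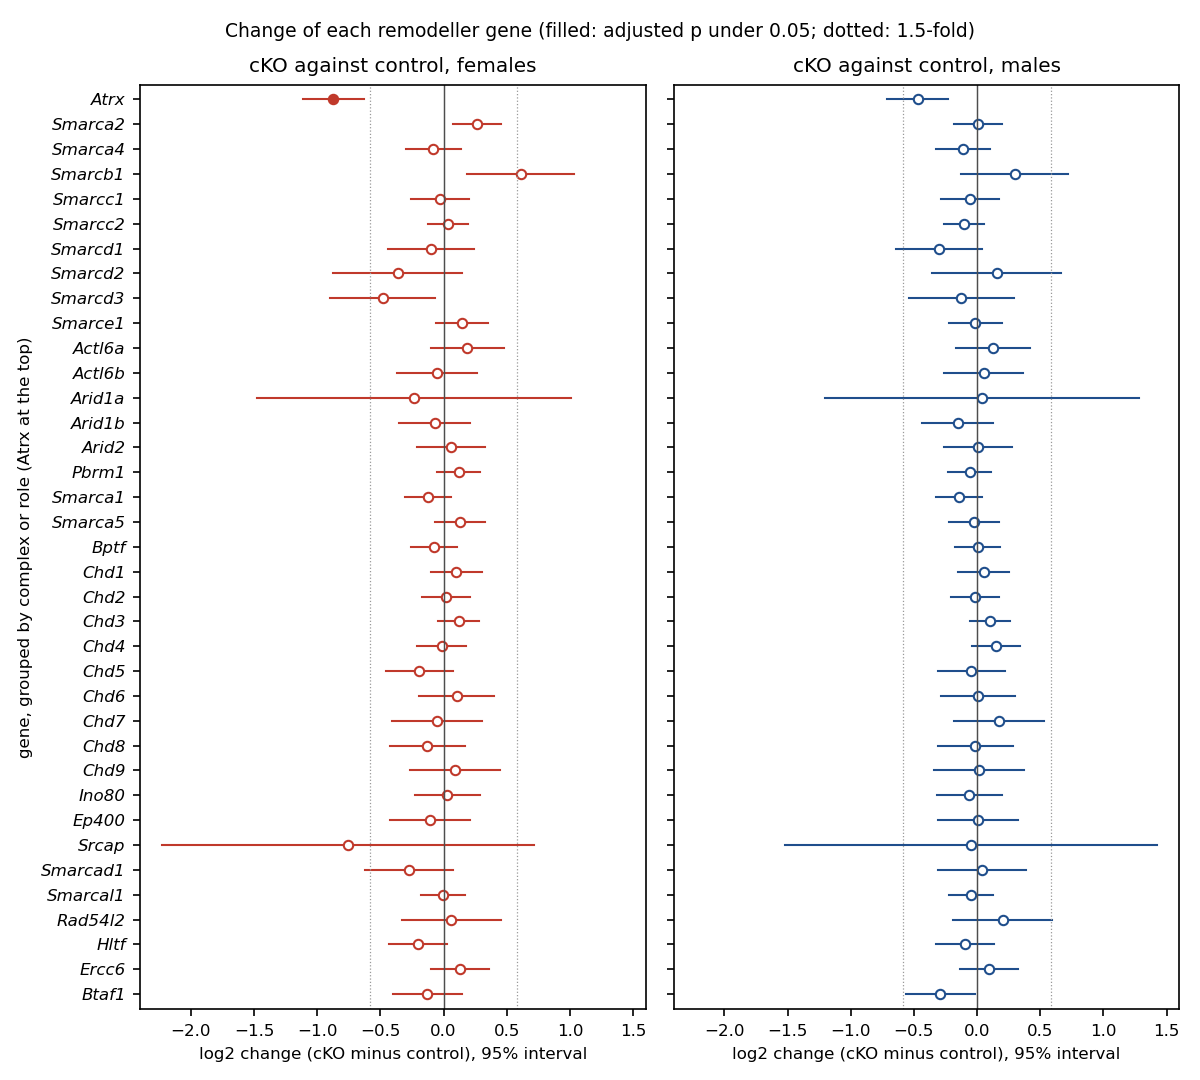
Change of Atrx (top row) and the 36 tested members on the log2 scale, cKO minus control, in females (left) and males (right), with 95% intervals from limma; filled points have an adjusted p under 0.05 and dotted lines mark a 1.5-fold change either way. Atrx in females is the 1 filled point, and most intervals of the members lie between the dotted lines.

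The BAF and PBAF complexes are driven by SMARCA2 (BRM) or SMARCA4 (BRG1), which exclude each other from a complex. Smarca2 (ENSMUSG00000024921, plus strand of chromosome 19, 26605050 to 26778322) had 14.6, 17.2 and 14.2 in cKO females, against 12.6, 12.8 and 12.6 in control females. cKO males had 12.1, 13.5 and 11.5, against 12.2, 12.0 and 12.7 in control males. The 3 cKO females lay above the 3 control females and the male groups overlapped. The log2 change was 0.26 in females (SE 0.09, limma adjusted p = 0.114) and 0.01 in males (SE 0.09, adjusted p = 1). On deposited FPKM with median-of-ratios scaling it was −0.63 in females, where the median over the members was −0.61. As deposited, the female libraries overlapped, with 67.9, 72.0 and 53.9 FPKM in cKO and 60.5, 63.7 and 56.7 FPKM in controls. Smarca4 had 18.6, 21.2 and 17.7 in cKO females, against 20.99, 20.2 and 19.7 in control females. cKO males had 13.7, 14.1 and 11.6, against 15.6, 13.8 and 13.3 in control males. Its groups overlapped in either sex, with log2 changes of −0.08 in females and −0.11 in males (adjusted p = 0.601 and 1). Over the 12 libraries deposited FPKM ran from 53.9 to 78.8 for Smarca2 and from 15.3 to 30.5 for Smarca4.

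The ratio of Smarca4 to Smarca2 does not depend on the scaling between libraries. It was 1.28, 1.23 and 1.25 in cKO females, against 1.67, 1.57 and 1.57 in control females, and the groups did not overlap. In males it was 1.14, 1.05 and 1.01 in cKO, against 1.28, 1.15 and 1.05 in controls, which overlapped. On deposited FPKM the ratio was 0.382, 0.2997 and 0.320 in cKO females and 0.504, 0.461 and 0.474 in control females. In males it was 0.275, 0.246 and 0.264 in cKO and 0.327, 0.330 and 0.296 in controls. On this scale neither sex overlapped, and every cKO ratio was below every control ratio of its sex. Over protein-coding transcripts the female groups overlapped, with 0.543, 0.534 and 0.747 in cKO and 0.797, 0.623 and 0.694 in controls. The male groups did not, with 0.328, 0.379 and 0.353 in cKO and 0.444, 0.427 and 0.384 in controls. This ratio is 1 of 6 between related members and was picked out after its values were seen, so it is a description with no test. The ratio of Smarca5 to Smarca1, the ISWI pair, separated the groups as well, and that of Actl6b to Actl6a did so in females on deposited FPKM. Both are given with their genes. The ratios of Smarcc2 to Smarcc1, Chd4 to Chd3 and Chd5 to Chd3 overlapped in either sex on each of these scales. How often ratios of other gene pairs separate the groups was not counted.

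Smarcb1, a core BAF subunit that contacts the nucleosome (ENSMUSG00000000902, minus strand of chromosome 10, 75896769 to 75921617), had the smallest p of all members in females. It had 2.57, 5.18 and 4.11 in cKO females, against 2.29, 2.50 and 2.20 in control females. cKO males had 2.57, 2.67 and 2.68, against 2.16, 2.13 and 1.88 in control males. All cKO libraries lay above all controls of their sex, and cKO females 2 and 3 stood well above the other 10 libraries. Smarcb1 was the 1 member higher without overlap in both sexes on this scale, 2.78% of the members, beside 1.55% of all genes. For the gene as a whole the log2 change was 0.61 in females (SE 0.19, limma adjusted p = 0.114), 0.30 in males (SE 0.19, adjusted p = 1) and 0.45 for their mean (SE 0.14, adjusted p = 0.222). In females it was 0.12 without cKO females 2 and 3, and −0.49 on deposited FPKM with median-of-ratios scaling. The median over the members in that last setting was −0.61, beside 0.31 over all genes.

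The transcripts of Smarcb1 differed in pattern. ENSMUST00000140408, a retained-intron form of 5 exons and 7441 bases, had 1.53, 4.01 and 3.61 deposited FPKM in cKO females, against 1.18, 1.26 and 1.53 FPKM in control females. It had 0.852, 1.73 and 0.602 FPKM in cKO males, against 0.875, 0.922 and 0.828 FPKM in control males, so that cKO females 2 and 3 were the highest of the 12 libraries. The coding transcript ENSMUST00000000925, of 9 exons, had 5.65, 2.83 and 2.04 FPKM in cKO females and 6.61, 6.51 and 5.09 FPKM in control females. The coding transcript ENSMUST00000121304, also of 9 exons, had 2.09, 4.81 and 4.99 FPKM in cKO females and 1.23, 1.91 and 1.38 FPKM in control females, so the pair ran in opposite directions. With protein-coding transcripts alone, a setting added after seeing the data, the log2 change of Smarcb1 was 0.25 in females (adjusted p = 0.328) and 0.42 in males (adjusted p = 1). The deposited sums of Smarcb1 ran from 7.04 to 11.8 FPKM over the 12 libraries. Division of coverage between overlapping transcripts is an estimate by the authors' quantifier.

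**Figure D3:**
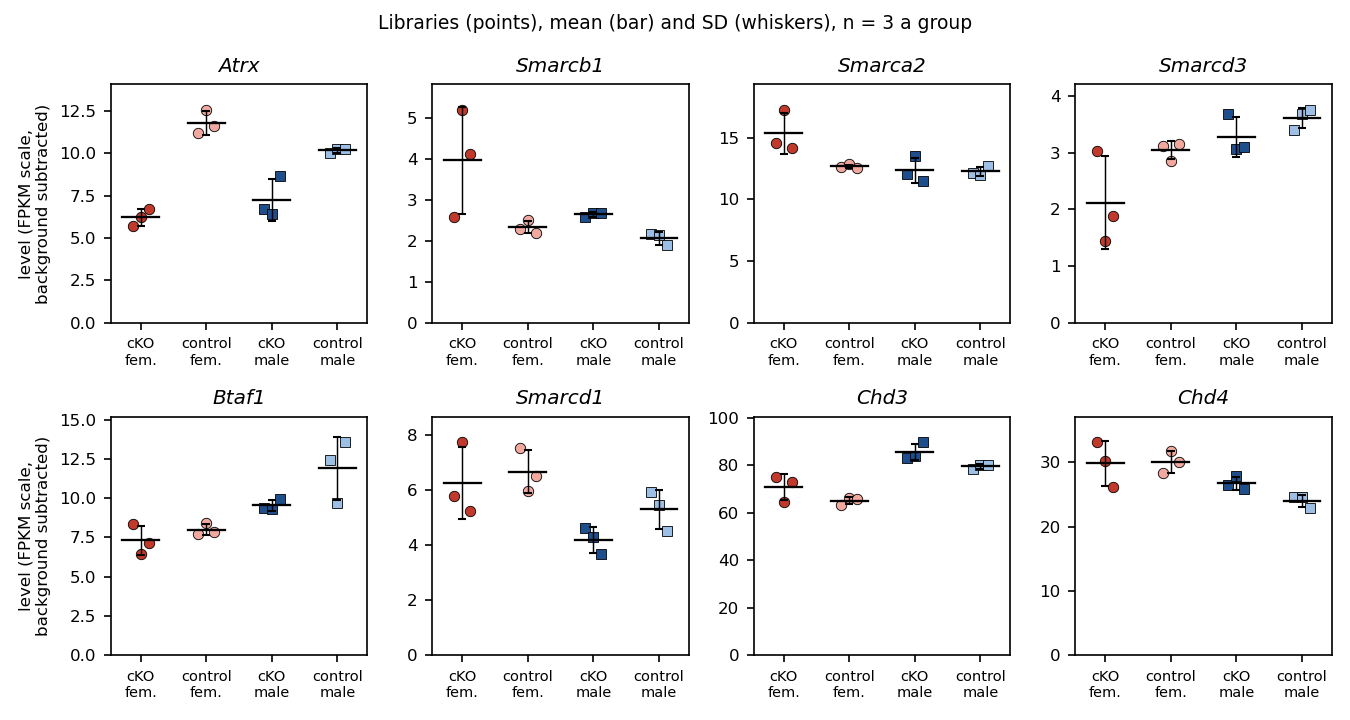
Levels of Atrx and 7 members (background subtracted, FPKM scale) in every library, with cKO left of control for females (circles) and males (squares); bars are means and whiskers SD, n = 3. Atrx is lower in every cKO library than in the controls of its sex. Smarcb1 is higher, with cKO females 2 and 3 far above the rest. On deposited FPKM with median-of-ratios scaling its female change turns to −0.49, beside a member median of −0.61. The other members overlap in at least 1 sex.

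The SMARCD subunits link the BAF complex to transcription factors, and Smarcd3 is the form of muscle and neurons. Smarcd3 had 3.03, 1.45 and 1.88 in cKO females, against 3.12, 2.86 and 3.16 in control females. cKO males had 3.69, 3.06 and 3.09, against 3.404, 3.68 and 3.75 in control males. cKO female 1 lay within the range of the control females and cKO females 2 and 3 lay below it. Its log2 change was −0.48 in females (SE 0.19, limma adjusted p = 0.132) and −0.12 in males (SE 0.19), with −0.01 in females without cKO females 2 and 3 and 0.11 without subtraction. Smarcd1 had 5.81, 7.75 and 5.23 in cKO females, against 7.53, 5.98 and 6.51 in control females. cKO males had 4.61, 4.31 and 3.69, against 5.93, 5.46 and 4.52 in control males. Its groups overlapped in either sex after subtraction. Its log2 change was −0.10 in females and −0.30 in males (adjusted p = 0.699 and 1). Smarcd2 had 2.69, 1.25 and 1.34 in cKO females, against 2.46, 2.76 and 1.77 in control females. cKO males had 2.90, 2.76 and 2.34, against 2.25, 2.57 and 2.21 in control males. It again showed cKO females 2 and 3 apart from cKO female 1. Its log2 change was −0.36 in females and 0.15 in males (SE 0.23, adjusted p = 0.305 and 1), but the female value turned to 0.30 without subtraction. As deposited, Smarcd2 had 8.62, 10.6 and 8.16 FPKM in cKO females and 5.80, 8.54 and 6.16 FPKM in control females. Deposited FPKM ran from 7.31 to 14.1 for Smarcd1, from 4.86 to 10.6 for Smarcd2 and from 9.65 to 12.7 for Smarcd3.

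The scaffold subunits Smarcc1 and Smarcc2 and the DNA-binding subunit Smarce1 had narrow intervals. Smarcc1 averaged 5.51 ± 0.420 in cKO females and 5.64 ± 0.664 in control females, and 4.19 ± 0.286 in cKO males and 4.37 ± 0.3004 in control males (SD, n = 3 each). Smarcc2 had 37.1, 40.4 and 35.6 in cKO females, against 38.4, 35.3 and 36.4 in control females. cKO males had 36.5, 33.8 and 32.5, against 36.97, 37.5 and 36.0 in control males. Its female and male groups overlapped. Smarce1 averaged 7.51 ± 0.643 in cKO females and 6.75 ± 0.646 in control females, and 7.79 ± 0.524 in cKO males and 7.86 ± 0.370 in control males (SD, n = 3 each). Log2 changes in females were −0.03, 0.04 and 0.14 for Smarcc1, Smarcc2 and Smarce1, and in males −0.06, −0.10 and −0.01. Their 95% intervals all lay within a 1.5-fold change either way. The deposited sums ran from 9.43 to 16.6 for Smarcc1, from 35.0 to 58.8 for Smarcc2 and from 20.7 to 26.5 for Smarce1.

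Actl6a and Actl6b encode the actin-related subunits that are exchanged when neurons differentiate, Actl6a in dividing progenitors and Actl6b in neurons. Actl6a had 2.22, 2.72 and 3.03 in cKO females, against 2.21, 2.14 and 2.41 in control females. cKO males had 2.71, 2.61 and 2.40, against 2.46, 2.13 and 2.35 in control males. The lowest cKO female was among the control females, and the male groups also overlapped. Actl6b had 4.42, 3.95 and 6.09 in cKO females, against 5.32, 5.03 and 4.51 in control females. cKO males had 3.71, 3.82 and 3.32, against 3.78, 3.43 and 3.21 in control males. Its values overlapped in the same way. The log2 change was 0.19 in females and 0.13 in males for Actl6a (limma adjusted p = 0.350 and 1), and −0.05 in females and 0.05 in males for Actl6b (adjusted p = 0.833 and 1). The ratio of Actl6b to Actl6a was 2.00, 1.45 and 2.01 in cKO females and 2.40, 2.35 and 1.87 in control females, and 1.37, 1.46 and 1.38 in cKO males and 1.53, 1.61 and 1.36 in control males, so the neuronal form was the higher of the pair in all 12 libraries. On deposited FPKM the ratio was 1.55, 1.01 and 1.13 in cKO females and 2.19, 2.16 and 1.65 in control females, without overlap. In males it was 1.21, 1.27 and 1.38 in cKO and 1.52, 1.56 and 1.22 in controls, which overlapped. Over protein-coding transcripts the groups overlapped in either sex, and the ratio is a description with no test. As deposited, Actl6a had 8.60, 10.6 and 11.6 FPKM in cKO females, against 7.35, 7.02 and 8.39 FPKM in control females, without overlap. Actl6b had 13.3, 10.7 and 13.1 FPKM in cKO females, against 16.1, 15.2 and 13.9 FPKM in control females, also without overlap. In males their deposited FPKM overlapped, and over all libraries Actl6a ran from 6.54 to 11.6 and Actl6b from 9.45 to 16.1 FPKM. They were among 5 members higher (Actl6a, Arid1a, Smarcad1, Rad54l2 and Ercc6) and 3 lower (Actl6b, Smarca4 and Chd5) in cKO females without overlap as deposited, 13.9% and 8.33%, beside 10.9% and 7.84% of all genes. In cKO males 4 members were higher (Smarcb1, Smarcd2, Chd3 and Chd4) and 2 lower (Smarcd1 and Smarca1) in this sense, 11.1% and 5.56%, beside 7.07% and 2.86%.

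The promoters of this pair are shown because the exchange between them is the best known neuronal switch of the complex. RefSeq promoters (GRCm38.p6) were matched for 30 of the 37 members, 37 promoters in all. In the 250 bases before the start, 33 of the 37 held 10 or more CG dinucleotides (counted once, as CG reads the same on both strands), a share of 89.2%, beside 37.8% of all 32851 mouse promoters of that table. The median was 20 CG in the members, beside 6 in all. The stretch of Actl6a lies at chr3:32708296-32708545 on the plus strand, with 19 CG, and that of Actl6b at chr5:137553296-137553545 on the plus strand, with 15 CG. Capitals mark CG, and the last base is the one before the annotated start.
Actl6a: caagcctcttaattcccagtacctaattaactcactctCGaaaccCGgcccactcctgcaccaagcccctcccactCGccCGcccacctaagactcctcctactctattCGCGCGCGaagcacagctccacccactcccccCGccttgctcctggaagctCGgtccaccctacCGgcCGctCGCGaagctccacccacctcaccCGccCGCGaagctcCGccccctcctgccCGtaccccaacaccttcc
Actl6b: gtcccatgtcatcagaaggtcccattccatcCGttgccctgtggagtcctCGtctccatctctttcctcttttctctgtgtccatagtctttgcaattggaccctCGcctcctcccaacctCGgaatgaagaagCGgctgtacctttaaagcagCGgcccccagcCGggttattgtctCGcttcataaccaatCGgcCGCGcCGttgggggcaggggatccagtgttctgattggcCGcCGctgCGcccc

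The targeting subunits are ARID1A or ARID1B in BAF, and ARID2 and the bromodomain protein PBRM1 in PBAF. Arid1a had levels from 0.104 to 3.82, both extremes in cKO females, and its interval in females ran from −1.47 to 1.01. Arid1b averaged 5.90 ± 0.337 in cKO females and 6.23 ± 0.430 in control females, and 4.03 ± 0.760 in cKO males and 4.51 ± 0.459 in control males (SD, n = 3 each). Arid2 averaged 3.996 ± 0.499 in cKO females and 3.82 ± 0.543 in control females, and 3.32 ± 0.154 in cKO males and 3.31 ± 0.253 in control males. Pbrm1 had 10.3, 12.3 and 11.9 in cKO females, against 10.9, 10.5 and 10.1 in control females. cKO males had 9.29, 10.3 and 10.03, against 10.2, 10.3 and 10.4 in control males. Its groups overlapped in both sexes. Log2 changes of these 4 genes lay between −0.23 (Arid1a) and 0.12 (Pbrm1) in females and between −0.15 (Arid1b) and 0.04 (Arid1a) in males. As deposited, FPKM ran from 2.05 to 10.2 for Arid1a, from 4.85 to 9.72 for Arid1b, from 4.76 to 11.1 for Arid2 and from 16.4 to 28.5 for Pbrm1.

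The ISWI ATPases SMARCA1 (SNF2L) and SMARCA5 (SNF2H) space nucleosomes, and BPTF is the large subunit of NURF, the complex built on SMARCA1. Smarca1, which like Atrx lies on the X chromosome, had 17.1, 18.2 and 16.6 in cKO females, against 17.5, 18.6 and 20.5 in control females. cKO males had 20.5, 21.2 and 21.7, against 21.2, 24.0 and 25.3 in control males. The groups overlapped in either sex, and the log2 change was −0.12 in females, −0.14 in males and −0.13 for their mean (limma adjusted p = 0.341, 1 and 0.239). Smarca5 had 17.8, 18.2 and 20.7 in cKO females, against 16.1, 16.8 and 18.7 in control females. cKO males had 15.5, 16.6 and 16.2, against 15.6, 15.4 and 18.1 in control males. The groups overlapped, with log2 changes of 0.13 in females and −0.02 in males. The ratio of Smarca5 to Smarca1 was 1.04, 1.001 and 1.25 in cKO females, against 0.915, 0.904 and 0.915 in control females. In males it was 0.756, 0.782 and 0.744 in cKO, against 0.736, 0.643 and 0.718 in controls, so it was higher in the cKO libraries of either sex without overlap. The same held on deposited FPKM, with 0.955, 1.22 and 1.19 in cKO females and 0.843, 0.872 and 0.904 in control females, and 0.721, 0.755 and 0.708 in cKO males and 0.665, 0.598 and 0.446 in control males. Over protein-coding transcripts the female groups overlapped, with 0.286, 0.822 and 0.890 in cKO and 0.770, 0.811 and 0.813 in controls. The male groups did not, with 0.665, 0.667 and 0.659 in cKO and 0.633, 0.568 and 0.431 in controls. This ratio too is a description with no test, noticed after the values were seen. Bptf had 10.5, 10.9 and 9.22 in cKO females, against 11.8, 10.3 and 10.2 in control females. cKO males had 8.40, 8.70 and 8.63, against 8.64, 8.76 and 8.23 in control males. It too overlapped in either sex, with log2 changes of −0.08 in females and 0.0047 in males. Its deposited FPKM ran from 14.1 to 23.7. Single transcripts of this family stood out in 1 or 2 libraries. The retained-intron transcript ENSMUST00000122807 of Smarca5 had 25.3, 0.393 and 0.364 FPKM in cKO females 1 to 3 and at most 0.206 FPKM in any other group. The coding transcript ENSMUST00000153548 of Smarca1 had 29.3 FPKM in cKO female 1 and 43.3 FPKM in control male 3, and at most 5.29 FPKM in the other 10 libraries. The deposited sums of these genes, from 21.5 to 38.2 FPKM for Smarca5 and from 21.6 to 58.6 FPKM for Smarca1, were highest in cKO female 1 and control male 3. The deposited ratio of Smarca5 to Smarca1 above takes in both high values in cKO female 1 (0.955) and that of Smarca1 in control male 3 (0.446). Over protein-coding transcripts it takes in that of Smarca1, in cKO female 1 (0.286) and control male 3 (0.431). In the levels per union of exons neither library stood apart from its group in this way.

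Among CHD proteins, CHD3, CHD4 and CHD5 are the alternative ATPases of NuRD, which couples remodelling to histone deacetylation. Chd3 had 75.1, 64.6 and 73.0 in cKO females, against 63.4, 66.2 and 65.9 in control females. cKO males had 83.2, 84.1 and 89.7, against 78.3, 80.3 and 80.3 in control males. The male groups did not overlap and the female groups did. Its log2 change was 0.12 in females (SE 0.07, limma adjusted p = 0.287) and 0.10 in males (SE 0.07, adjusted p = 1), but −1.12 and −0.15 in those sexes on deposited FPKM with median-of-ratios scaling. The medians over the members in that setting were −0.61 in females and −0.19 in males. Chd4 had 33.1, 30.2 and 26.2 in cKO females, against 28.3, 31.8 and 30.0 in control females. cKO males had 26.5, 27.9 and 25.9, against 24.6, 24.5 and 23.0 in control males. Again the cKO males lay above the control males without overlap, and their log2 change was 0.15 (SE 0.09, adjusted p = 1), or −0.02 on deposited FPKM with median-of-ratios scaling. In females it was −0.01. With Smarcb1, these made 3 members whose cKO males lay above all control males, 8.33% of the members, beside 7.4% of all genes. In females this held for Smarcb1 and Smarca2, 5.56%, beside 10.2% of all genes, and no member lay below the controls without overlap in females, beside 7.5% of all genes, in males, beside 4.65%, or in both sexes, beside 0.943%. Chd5, the neuronal member, had 14.6, 15.2 and 14.7 in cKO females, against 19.9, 14.9 and 16.6 in control females. cKO males had 12.8, 14.1 and 13.1, against 16.4, 12.8 and 12.5 in control males. The female groups overlapped through cKO female 2 and control female 2, and the log2 change was −0.19 in females and −0.05 in males (adjusted p = 0.301 and 1). Chd5 ran from 12.4 to 24.0 deposited FPKM in all, and had 17.3, 12.4 and 12.4 FPKM in cKO females, against 24.0, 18.6 and 18.7 FPKM in control females, without overlap. Deposited FPKM ran from 66.3 to 146 for Chd3 and from 34.9 to 60.5 for Chd4.

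CHD1 and CHD2 act with transcribing polymerase, and CHD6 to CHD9 form a separate subfamily. CHD7 is the gene of CHARGE syndrome, and CHD8 is an autism risk gene. Chd7 had 2.15, 1.44 and 2.04 in cKO females, against 2.07, 1.89 and 1.86 in control females. cKO males had 2.25, 2.19 and 2.00, against 1.58, 2.03 and 1.95 in control males. It overlapped in either sex. Chd8 had 4.54, 4.85 and 4.43 in cKO females, against 5.98, 4.66 and 4.69 in control females. cKO males had 3.81, 4.35 and 3.55, against 4.78, 3.57 and 3.55 in control males. Here too the groups overlapped in either sex, with log2 changes for Chd7 and Chd8 of −0.05 and −0.13 in females and 0.17 and −0.01 in males. Chd1 averaged 7.42 ± 0.800 in cKO females and 6.87 ± 0.149 in control females, and 5.90 ± 0.0963 in cKO males and 5.69 ± 0.483 in control males (SD, n = 3 each). Chd2 averaged 7.004 ± 0.798 in cKO females and 6.90 ± 0.147 in control females, and 6.38 ± 0.356 in cKO males and 6.46 ± 0.123 in control males. Their log2 changes lay between −0.02 and 0.10 in both sexes. Chd6 averaged 5.89 ± 1.08 in cKO females and 5.40 ± 0.440 in control females, and 3.88 ± 0.317 in cKO males and 3.86 ± 0.414 in control males. Chd9 averaged 4.53 ± 1.0998 in cKO females and 4.17 ± 0.645 in control females, and 3.81 ± 0.452 in cKO males and 3.74 ± 0.129 in control males. Their log2 changes lay between 0.01 and 0.10. Deposited FPKM ran from 8.56 to 13.5 for Chd1, from 16.3 to 25.5 for Chd2, from 9.29 to 22.4 for Chd6, from 4.25 to 9.26 for Chd7, from 10.9 to 30.3 for Chd8 and from 19.4 to 36.6 for Chd9.

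INO80 slides nucleosomes and acts on H2A.Z, and EP400 and SRCAP place the histone variant H2A.Z. Ino80 averaged 4.66 ± 0.689 in cKO females and 4.55 ± 0.590 in control females, and 4.09 ± 0.148 in cKO males and 4.29 ± 0.0973 in control males (SD, n = 3 each). Ep400 averaged 4.98 ± 0.583 in cKO females and 5.41 ± 0.618 in control females, and 4.70 ± 0.505 in cKO males and 4.71 ± 0.854 in control males. Log2 changes of the pair lay between −0.11 and 0.03. Srcap had 3.37, 0 and 1.99 in cKO females, against 4.48, 0.856 and 2.94 in control females. cKO males had 2.35, 2.70 and 2.13, against 2.66, 2.49 and 2.33 in control males. The value of 0 in cKO female 2 is a level at or below the background of that library, and the interval in females, −2.23 to 0.71, allows a large change either way. On the deposited scale, FPKM ran from 4.90 to 9.74 for Ino80, from 8.36 to 27.2 for Ep400 and from 6.55 to 17.3 for Srcap. For Ep400 much of the deposited range came from the short retained-intron transcript ENSMUST00000129884, of 3 exons, with 0.150, 9.14 and 15.5 FPKM in cKO males and 0.0223, 14.5 and 0.131 FPKM in control males.

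The repair and fork group held no call either. Rad54l, which acts in homologous recombination and is used mainly by dividing cells, was too low to be tested. It had 0.651, 0.569 and 0.785 in cKO females, against 0.404, 0.458 and 0.415 in control females. cKO males had 0.341, 0.432 and 0.262, against 0.264, 0.299 and 0.273 in control males. The cKO females lay above the control females on this scale, with levels below 1 throughout. Of the genes tested, 10.2% lay higher in cKO females without overlap. As deposited the groups overlapped, with 1.85, 4.64 and 5.35 FPKM in cKO females and 1.16, 1.14 and 2.30 FPKM in control females. They also overlapped before subtraction. Of the 5 dividing-cell markers, 4 had a mean of at least 1 in cKO females and 1 did in control females. Their summed level was 3.58 to 16.1 in cKO females and 1.78 to 3.72 in control females, and 1.38 to 2.77 in cKO males and 1.42 to 1.56 in control males. None was at 0 in all libraries, and the part of such cells or of the background in the Rad54l values was not tested. Hltf, which reverses stalled forks, had 6.63, 5.95 and 4.87 in cKO females, against 6.91, 6.84 and 6.41 in control females. cKO males had 7.19, 7.70 and 8.17, against 7.92, 8.16 and 8.60 in control males. The groups overlapped, and the log2 change was −0.20 in females and −0.09 in males (limma adjusted p = 0.214 and 1). Ercc6, the CSB protein of transcription-coupled repair, had 4.19, 3.95 and 4.70 in cKO females, against 3.97, 3.77 and 3.87 in control females. cKO males had 3.20, 3.45 and 2.85, against 3.08, 2.96 and 2.72 in control males. It overlapped in either sex after subtraction, with log2 changes of 0.13 in females and 0.10 in males.

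Smarcad1, which acts in DNA end resection and heterochromatin upkeep, had 4.05, 2.21 and 3.22 in cKO females, against 3.76, 4.06 and 3.65 in control females. cKO males had 3.78, 4.01 and 3.92, against 3.68, 3.83 and 3.85 in control males. The low values were those of cKO females 2 and 3, and its log2 change was −0.27 in females and 0.04 in males (adjusted p = 0.266 and 1), with 0.12 in females without subtraction. As deposited the order turned, with 16.2, 21.6 and 19.5 FPKM in cKO females and 15.6, 15.2 and 15.7 FPKM in control females, and cKO females 2 and 3 were then its highest libraries. Btaf1, which takes the TATA-binding protein off DNA, had 8.32, 6.45 and 7.13 in cKO females, against 7.72, 8.41 and 7.83 in control females. cKO males had 9.39, 9.29 and 9.93, against 12.4, 9.66 and 13.6 in control males. Control male 2 lay within the range of the cKO males. Btaf1 had a log2 change of −0.13 in females, −0.29 in males (SE 0.12, unadjusted p = 0.0386) and −0.21 for their mean, with adjusted p = 0.509, 1 and 0.230. Smarcal1, an annealing helicase of stalled forks, had 6.18, 6.90 and 6.11 in cKO females, against 6.81, 6.24 and 6.21 in control females. cKO males had 4.82, 4.96 and 4.49, against 4.90, 4.86 and 5.04 in control males. The groups overlapped in either sex, and its log2 changes were −0.01 in females and −0.05 in males. Rad54l2, which interacts with the androgen receptor, averaged 2.28 ± 0.184 in cKO females and 2.16 ± 0.180 in control females, and 1.93 ± 0.153 in cKO males and 1.64 ± 0.463 in control males, with log2 changes of 0.06 in females and 0.20 in males. Deposited FPKM ran from 0.522 to 5.35 for Rad54l, from 10.5 to 18.4 for Hltf, from 5.53 to 13.4 for Ercc6, from 13.0 to 21.6 for Smarcad1, from 8.93 to 21.2 for Btaf1, from 8.90 to 16.4 for Smarcal1 and from 1.66 to 8.69 for Rad54l2.

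Whether the response differed between the sexes was tested as the male effect minus the female effect. Of the 36 members 0 were called, beside 0.0% of all genes, and 0 members had an unadjusted p under 0.05 beside 6.24% of all genes. The count of all genes at an unadjusted p under 0.05 was 940. The members of smallest p were Smarca2 (−0.26), Pbrm1 (−0.18) and Smarcc2 (−0.14), with the lower change in males, and Smarcd2 (0.52), Smarcad1 (0.31) and Smarcd3 (0.36), with the higher change in males. Their limma adjusted p lay between 0.586 and 0.591. The 95% interval of the difference for Smarca2 was −0.52 to 0.01 and that for Smarcd2 was −0.20 to 1.24. Without cKO female 1, Smarcb1 (−0.56), Smarcd2 (0.80) and Smarcd3 (0.59) passed, 8.33% of the members, beside 19.5% of all genes.

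The wider set of complex partners, 70 genes of the BAF and PBAF, NuRD, ISWI, INO80, SRCAP and TIP60 complexes and other SNF2-type ATPases, was read from the same fit. Of these 60 were tested, and 0 rose and 0 fell in females, in males, for the mean and for the difference between the sexes. Their median log2 change was −0.05 in females and 0.01 in males, beside the 0.02 and 0.03 of all genes. Brd9, a bromodomain subunit of the non-canonical BAF complex, averaged 17.9 ± 1.90 in cKO females and 14.3 ± 1.05 in control females, and 16.3 ± 1.09 in cKO males and 13.3 ± 0.0671 in control males (SD, n = 3 each). Its log2 change was 0.31 in females (limma adjusted p = 0.114), 0.28 in males (adjusted p = 1) and 0.29 for their mean (adjusted p = 0.222). Dmap1, a subunit of the TIP60 and SRCAP complexes, had a change of −0.50 in females (adjusted p = 0.114), and Baz1b, a partner of SMARCA5, one of 0.13 in males (adjusted p = 1). Actr8, an actin-related subunit of INO80, had 0.25 for the mean (adjusted p = 0.222). For the male effect minus the female effect the smallest p belonged to Dmap1 (0.57) and Ino80e (1.25), each with an adjusted p of 0.586.

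The mix of transcript forms within the members differed between libraries. Retained-intron transcripts, 93 of 29 members by the GENCODE M21 annotation, held 17.6%, 27.4% and 27.7% of the members' deposited FPKM in cKO females, against 14.4%, 14.0% and 17.2% in control females. In males they held 12.1%, 16.6% and 12.5% in cKO, against 11.3%, 12.5% and 9.76% in controls. The 16 transcripts of 1 exon, from 11 members, held 2.12%, 5.52% and 6.49% in cKO females, against 1.78%, 1.68% and 2.38% in control females. The highest shares of either class belonged to cKO females 2 and 3, the libraries with the highest background, and the lowest to control male 3, the library with the lowest. Protein-coding transcripts held 75.5%, 59.8% and 61.6% in cKO females, against 78.3%, 80.2% and 74.6% in control females. Whether the genotype or the background sets these shares was not tested.

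**Figure D4:**
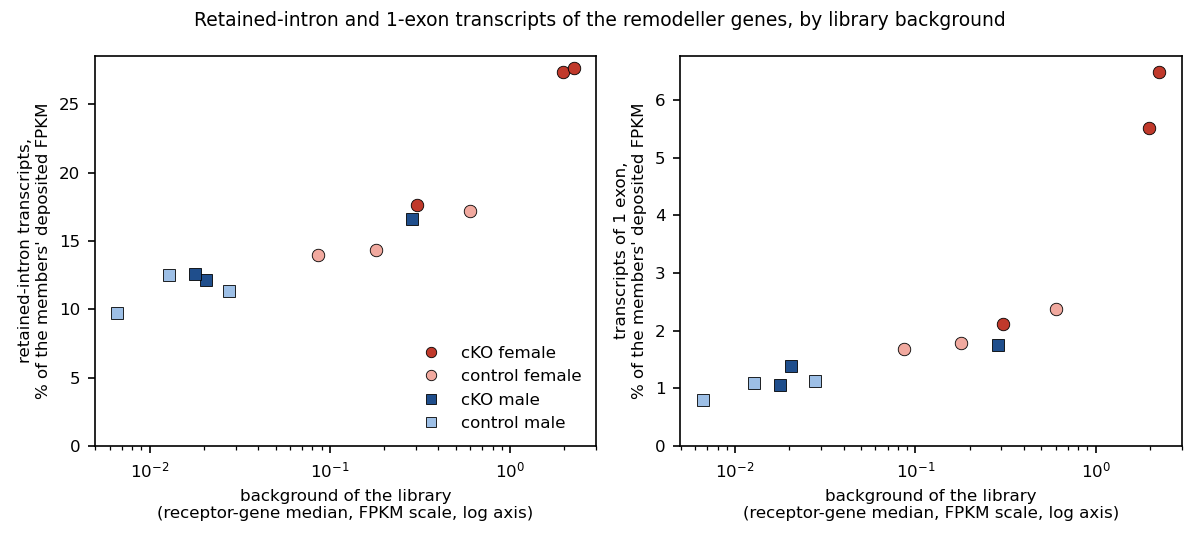
Share of the members' deposited FPKM held by retained-intron transcripts (left) and by transcripts of 1 exon (right), in percent, against the background of each library (median over receptor genes, log axis); each point is 1 library. In both panels cKO females 2 and 3 stand apart at the top right, and control male 3 is at the bottom left.

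Control females and control males were compared as well, a comparison added after seeing the data. Of the 36 members 7 were called, 19.4%, beside 11.7% of all genes called. Called higher in females were 4 members, 11.1% beside 5.18%, and called lower were 3, 8.33% beside 6.56%. Smarca4 (0.50, SE 0.10, limma adjusted p = 0.0109), Smarcal1 (0.35, adjusted p = 0.0206), Bptf (0.32, 0.0314) and Chd4 (0.31, 0.0413) were higher in females on this scale, and on deposited FPKM with median-of-ratios scaling the sign turned, to −0.10, −0.16, −0.17 and −0.21. The median difference in that setting was 0.30 over all genes and −0.29 over the members, with 3 of 37 members above 0. Btaf1 (−0.53, SE 0.12, adjusted p = 0.0207) and Smarca1 (−0.31, 0.0365) were lower in females, as was Chd3 (−0.29, 0.0285), whose sign turned with quantile normalization (0.03). Smarca4, for example, had 20.99, 20.2 and 19.7 in control females, against 15.6, 13.8 and 13.3 in control males.

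Leaving out any 1 control library lowered the calls of members and of all genes. Without control male 3 no member was called, with 539 genes (3.54%), and without control female 1 it was 1 member (2.78%), with 731 genes (4.85%). It was 2 members (5.56%) without control female 2 or control male 2, with 1001 and 753 genes (6.62% and 4.96%). It was 3 (8.33%) without control female 3 or control male 1, with 917 and 1234 genes (6.25% and 8.15%). The wider set had 4 calls among its 60 genes tested, 6.67% beside 11.7% of all genes, with Bcl11a (0.57), a BAF-associated transcription factor, and Trrap (0.49), a TIP60 scaffold, higher in females, and the INO80-family actin-related Actr6 (−0.81) and the histone-fold protein Chrac1 (−0.47) lower. Cell type markers differed between the same groups. The 5 oligodendrocyte markers summed to 244 to 333 in control females and 485 to 618 in control males, with 2 of 5 called lower in females. The 5 astrocyte markers summed to 149 to 153 in control females and 216 to 254 in control males, also with 2 of 5 called lower, and of the 8 excitatory neuron markers 2 were called higher in females. The interneuron markers summed to 115 to 121 in control females and 92.4 to 119 in control males. Among them Gad1 (0.53, limma adjusted p = 0.0114) and Gad2 (0.51, 0.0237) were called higher in females. None of these markers was at 0 in all libraries, and their part in the differences of the members was not tested.

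**Figure D5:**
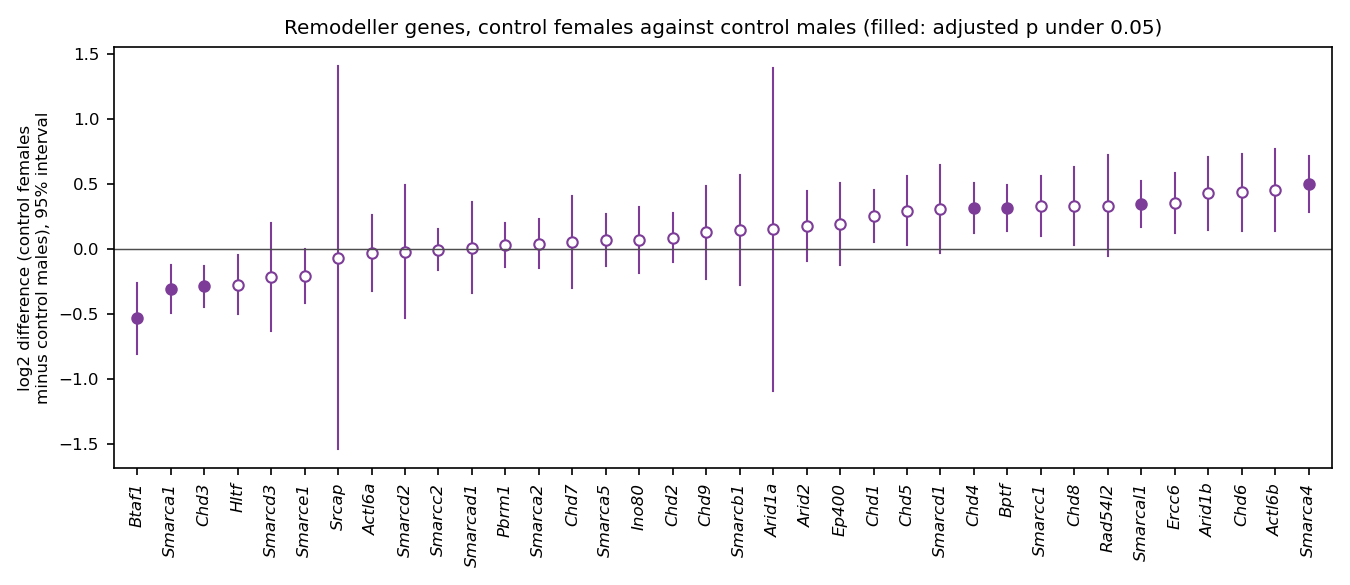
Difference between control females and control males (log2, females minus males) for the 36 tested members, with 95% intervals from limma; filled points have an adjusted p under 0.05. Smarca4 (0.50) is at the right end and Btaf1 (−0.53) at the left end. The signs of Smarca4, Smarcal1, Bptf and Chd4 turn on deposited FPKM with median-of-ratios scaling, where the member median is −0.29. That of Chd3 turns with quantile normalization.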

How the data were processed

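Total RNA of the hippocampus was extracted with a miRVANA kit, depleted of ribosomal RNA and made into libraries with the ScriptSeq Complete Gold kit, per the labels' protocols. Alignment with HISAT2 2.0.4 to GRCm38.p6 and quantification with StringTie are named in the submitters' processing notes. How reads were trimmed, whether strand was used and which annotation release served is not given in the sources used here, so reads of overlapping and antisense genes cannot be told apart. The authors deposited FPKM and mean coverage (bases per position) for each of 137862 transcripts per library. No counts of reads were used.

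Deposited coverage was turned into bases per gene, divided by the union exon length of the gene (GENCODE M21, which held 54495 of the 54532 gene identifiers) and put on the FPKM scale. The median over 1459 olfactory and vomeronasal receptor genes was subtracted in each library, and libraries were scaled by median-of-ratios. Genes of mean at least 1, and at least 1 in 3 libraries, were tested with limma 3.58.1 (R 4.3.3; trend and robust) on log2(value + 0.5), which understates the change of low genes, with all 12 libraries in 1 fit and Benjamini-Hochberg adjustment over all genes tested, two-sided, at 0.05. Tables were made with Python 3.11.15, numpy 2.4.6 and pandas 2.3.3, and plots with matplotlib 3.10.9. The fit was tested on simulated data, with the same change set in the cKO libraries of both sexes. Of 100 genes with a simulated log2 change of 0.5, 12 were called in females, 15 in males and 35 for the mean. At a log2 change of 1, 64, 65 and 80 of 100 were called. Most changes of 0.5 were thus missed, so a member without a call may still have changed.

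Females and males were each compared, cKO against control, and the mean and the difference of these effects were tested. Control females against control males and the use of protein-coding transcripts alone were added after seeing the data. The alternatives tried were no subtraction, deposited FPKM with and without scaling, quantile normalization, a pseudocount of 1, no filter, each sex alone, a replicate block and leaving out libraries. With 3 libraries against 3, an exact permutation test within a sex cannot go below p = 0.1 and was not used. The members and lists were chosen with earlier results of these data known. Values per library are given for Atrx, 15 central members and, in each comparison, the 3 members of smallest p in each direction, other members by group mean ± SD or range, and of the other complex subunits those that passed or else up to 2 of smallest p.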

Additional observations from a re-analysis of the deposited data

How the results depend on the processing

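Of the log2 changes of single members recomputed under the alternatives, 678 in females and 730 in males kept their direction and did not pass the test, 106 in females and 62 in males had the other sign without passing, and 8 in females passed with the same sign. The count of genes called in females was 5 without background subtraction, 0 on deposited FPKM with median-of-ratios scaling, 10452 on deposited FPKM with no scaling, 35 with quantile normalization, 30 with no filter, 0 with each sex fitted alone and 3 with protein-coding transcripts. With no scaling 3 members were called in females, 8.11% beside 24.1% of all genes. In males the same settings called 3, 0, 0 and 0 genes for the first 4, 5 with each sex alone and 2 with protein-coding transcripts. For the mean they called 10 without subtraction, 0 with median-of-ratios scaling and 9 without cKO females 2 and 3, and for the difference between the sexes protein-coding transcripts called 1. Leaving out 1 library in turn gave 1 to 5789 genes and 0 to 6 members in females, 1 to 2 genes and 0 members in males, 3 to 4456 genes and 0 to 4 members for the mean, and 0 to 2918 genes and 0 to 3 members for the difference. The highest values in females, for the mean and for the difference were those without cKO female 1. They were 16.7%, 11.1% and 8.33% of the members, beside 38.8%, 29.8% and 19.5% of all genes. For control females against control males the genes called were 104 on deposited FPKM with median-of-ratios scaling, 341 with no scaling, 720 with no filter, 3352 without cKO females 2 and 3, 1064 with protein-coding transcripts and 539 to 2773 without 1 library. The members called in that comparison were 0, 0, 1, 14 and 4 in those settings, 3 with quantile normalization and 0 to 11 without 1 library. Here Smarca4 (−0.10), Smarcal1 (−0.16), Bptf (−0.17) and Chd4 (−0.21) turned with median-of-ratios scaling and Chd3 (0.026) with quantile normalization. With median-of-ratios scaling the member median was −0.29. The cause was not tested. A block for the replicate number within a sex called 0 genes in females, in males and for the mean, and 0 members. The labels do not say whether equal numbers mark pairs. Deviations of cKO and control libraries of the same number correlated at 0.15, −0.30 and 0.38 in females and at 0.04, −0.10 and 0.20 in males. Those of different numbers ran from −0.51 to 0.48 in females and from −0.26 to 0.17 in males. With 3 libraries in a group, these values cannot settle the question. Srcap and Arid1a had the largest standard errors of the members tested, and Rad54l was too low to be tested.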
